A study of Caenorhabditis elegans with 2 samples.

Results

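The mitochondrial chaperonin and stress response genes described here were 9 of the 19973 nuclear protein-coding genes of the worm annotation: hsp-60, Y22D7AL.10, hsp-6, atfs-1, ubl-5, dve-1, clpp-1, lonp-1 and haf-1. They were chosen by function around the strongest peak of an NFYA-2 ChIP-seq experiment, so the signals of hsp-60 and Y22D7AL.10 are part of how the set was drawn up, and all values below are descriptions with no test. For each gene, regions were kept when their summit, the position of highest signal, lay inside the gene or within 1000 bp of its start. All 9 genes had at least 1 such region, with 48 distinct regions in all. By the same rule 88.5% of all coding genes had at least 1, with a median of 2 regions per gene. Gene lengths were not matched, and nothing is read from the count.

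The only group was whole young adult Caenorhabditis elegans of strain RW12238, grown from L1 larvae that had been starved after bleaching and given an age of 64 hours, with 2 biological replicates. These worms carry the allele st12238[nfya-2::TY1::EGFP::3xFLAG], a CRISPR insertion on chromosome I that tags NFYA-2 at its own gene, and chromatin was recovered with an anti-GFP antibody. The strain is a single insertion, the sample is the whole animal, and signals are therefore sums over all tissues. No untagged strain, mitochondrial stress or second stage was analysed here. The depth of the libraries is unknown, because the deposited lists hold signals in the peak caller's own units and no read counts.

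NF-Y is a trimeric transcription factor that binds the CCAAT box, and NFYA-2 is one of the worm forms of its A subunit, the one that reads the CCAAT sequence. The mitochondrial unfolded protein response is the pathway by which worm cells raise nuclear genes for mitochondrial chaperones and proteases when protein folding or import in mitochondria fails. Its bZIP factor ATFS-1 is imported into healthy mitochondria and degraded there, and under stress it enters the nucleus, where the homeodomain protein DVE-1 and its partner UBL-5 also act. hsp-60 and hsp-6 are the standard reporters of this response.

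The strongest conservative peak lay on chromosome III from 1618974 to 1619291 (WBcel235), in the 812 bp between the divergent genes Y22D7AL.10 and hsp-60. hsp-60 encodes the mitochondrial chaperonin, and Y22D7AL.10 is annotated by RefSeq as the mitochondrial 10 kDa heat shock protein, the co-chaperonin that caps such rings. The sequence below is the 300 bp around the summit, chrIII:1618983-1619282 on the forward strand, with capitals marking the pair of CCAAT boxes that match an extended consensus. That consensus asks for a purine at each of the 2 bases before CCAAT, then C or G, then a purine.
hsp-60 and Y22D7AL.10 promoter: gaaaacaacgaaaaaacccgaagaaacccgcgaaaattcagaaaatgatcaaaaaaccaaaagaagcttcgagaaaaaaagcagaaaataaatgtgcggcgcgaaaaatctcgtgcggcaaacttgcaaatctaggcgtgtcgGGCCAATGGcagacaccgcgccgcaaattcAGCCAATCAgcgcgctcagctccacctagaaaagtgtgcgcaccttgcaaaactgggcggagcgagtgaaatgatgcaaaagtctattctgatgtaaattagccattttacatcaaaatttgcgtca

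The summit of this peak, at position 1619133, fell inside the first of those boxes. GGCCAATGG runs from 1619126 to 1619134, and AGCCAATCA from 1619156 to 1619164, both on the forward strand with 30 bp between their centres. The centre of the first box was 612 bp from the start of hsp-60 and 201 bp from that of Y22D7AL.10, and that of the second box was 582 bp and 231 bp from them. One more CCAAT, in the word AACCAATTT on the reverse strand, had its core from 1618937 to 1618941, 10 bp from the Y22D7AL.10 start, and does not match the extended consensus. It lay 194 bp from the summit and outside the peak.

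Across the lists the summit stayed within 12 bp of the centre of the first box. The conservative, pooled and replicate 2 summits were at the same base, 3 bp past the centre of the box, and the replicate 1 summit was 10 bp past it. Counting also the summits of the 2 inputs behind each list, positions ran from 4 bp before to 12 bp past the first box, and from 34 to 18 bp before the second. No summit was placed at the second box, and a ChIP-seq summit of fragments sonicated to 200 to 800 bp is not a footprint. The peak was 318 bp wide, with no wider conservative peak, while 272 of the 281 conservative peaks were 240 bp wide. It ended 451 bp short of hsp-60 and began 45 bp from Y22D7AL.10, so the whole of it lay between the genes, nearer to the co-chaperonin gene.

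The hsp-60 peak had a deposited signal of 2245 on the conservative list, with 994.6 in replicate 1 and 1256 in replicate 2. It was thus 1.26-fold higher in replicate 2, a log2 ratio of 0.34. Over the 281 conservative peaks the same log2 ratio had a median of 0.20 and a middle range of -0.07 to 0.46. Less that median, the hsp-60 ratio was 0.13. The irreproducible discovery rate (IDR) is low where a region ranks high in both inputs alike, so a weak region can have similar inputs and a high IDR. It was 1e-05 at this peak, the lowest value the list holds.

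hsp-60 and Y22D7AL.10 were the members with a thresholded peak, 2 of 9 in each of the 4 thresholded lists and by the same single peak. For comparison, 1.30% of all coding genes had a conservative peak by the same assignment, 2.00% a pooled peak, 0.456% a replicate 1 peak and 0.401% a replicate 2 peak. Since the set was built around this peak, nothing is read from that difference. The hsp-60 peak ranked 1 in each thresholded list. Its signal was 4.10 times that of the next peak on the conservative and pooled lists, 4.42 times on the replicate 1 list and 3.78 times on the replicate 2 list. It held 8.97% of the summed signal of the conservative peaks, and 16.7% and 17.8% of that of the replicate 1 and replicate 2 lists.

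**Figure D1:**
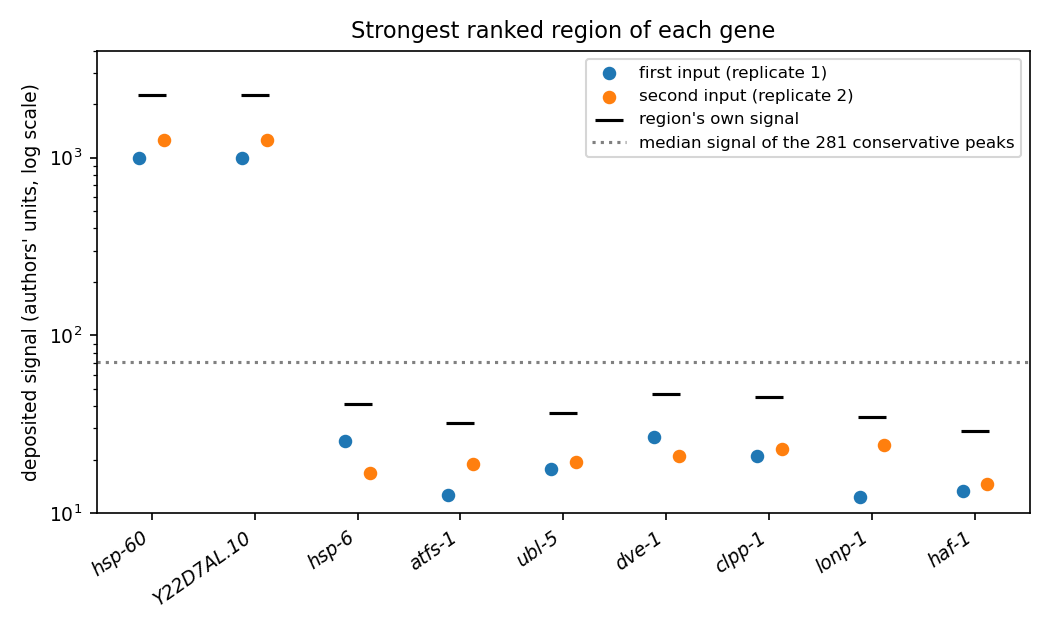
Deposited signal (authors' units, log scale) of the strongest ranked region of each gene; bars show the region's own signal, blue and orange points the signals of its first and second inputs, and the dotted line the median of the conservative peaks. hsp-60 and Y22D7AL.10 share 1 region at 2245, and the regions of the other 7 genes sit between 28.83 and 46.55, below the median of 71.1.

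In the ranked lists, which were not thresholded, 1 region had a higher signal than the hsp-60 peak. It lay on chromosome X from 15810999 to 15811180, between genes and with no coding gene assigned, and its signal was 2433. On the replicate 1 and replicate 2 ranked lists that region had 1177 and 1363, also above the hsp-60 peak. Its IDR was 1e-05 in each of the 4 ranked lists. It held no extended consensus. It was in none of the 4 thresholded lists, although its IDR was low, and why it was left out was not tested. Within each replicate's own list the hsp-60 peak was steady: its 2 inputs had signals of 502.3 and 496.5 for replicate 1, a 1.01-fold difference, and of 602.1 and 662.5 for replicate 2, a 1.10-fold difference. The median difference over all regions of those lists was 1.42-fold and 1.37-fold. Those regions were mostly weak, with median signals of 13.8 and 15.4, and peaks of like strength were not compared.

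The next conservative peaks also lay at chaperone genes in part, and all were far below. The second, at ift-43 and mdt-26, had a signal of 547.5, with 224.8 in replicate 1 and 332.2 in replicate 2. The third lay at hsp-90 and C47E8.4 with a signal of 315.1, the fourth at hsp-3, which encodes an ER Hsp70, with 276.2, and the fifth at crt-1, which encodes calreticulin, with 257.3. Relative to these 3, the hsp-60 peak was 7.12, 8.13 and 8.72 times as high. The hsp-60 peak held 2 extended sites within 100 bp of the summit, and each of the other 4 held 1.

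At least 2 extended sites within 100 bp of a summit were found in 12 of 281 conservative peaks, or 4.27%, and in 0.306% of the 71547 ranked regions. On the same strand, as at hsp-60, they were found in 5 conservative peaks and in 138 ranked regions. The other 4 conservative peaks with same-strand sites, named after their values were seen, were at ced-7, with a signal of 227.3, at fcd-2, with 65.56, and at 2 summits assigned to no coding gene, with 73.43 and 59.18. The 30 bp spacing of the hsp-60 promoter was that of 5 of the 138 ranked regions, hsp-60 included. In the other 4 conservative peaks the closest sites were 32 bp apart, the spacing of 63.8% of the 138. Around those 4 summits 1.17% to 10.5% of words of 31 bases occur more than once in the genome, against 0 at hsp-60. Whether regions among the 138 are copies of one sequence was not tested.

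The ranked regions around the promoter were far weaker than its peak. The nearest ones on the hsp-60 side had signals of 48.55 at 1023 bp from the summit and 28.06 at 1479 bp. On the Y22D7AL.10 side the nearest had 7.132 at 772 bp and 29.79 at 976 bp. hsp-60 had 9 further regions in its gene body, between 21.54 and 51.88, and the 3 highest lay in coding exons. The highest of them, 1766 bp into the gene, had 25.05 in replicate 1 and 27.39 in replicate 2, with an IDR of 0.0304. The region 414 bp into the gene had 14.16 in replicate 1 and 29.7 in replicate 2, so those 2 values differed 2.10-fold. Y22D7AL.10 had 3 further regions in its body, at 29.79, 26.81 and 7.132.

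**Figure D2:**
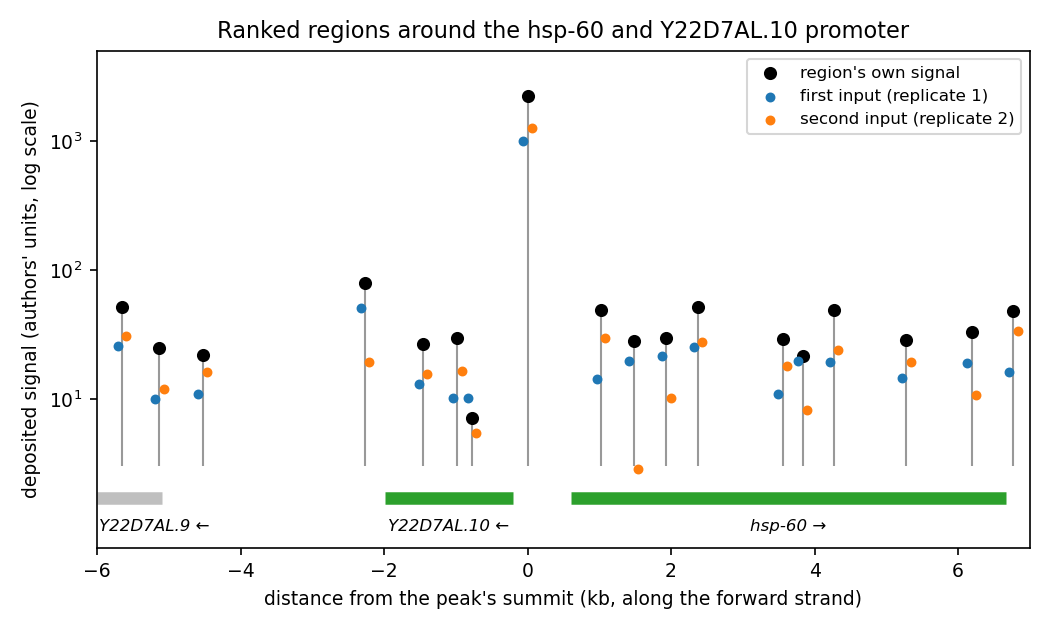
Ranked regions by distance of their summit from that of the hsp-60 peak (kb), with the region's own signal in black and its first and second inputs in blue and orange (authors' units, log scale); bars mark gene bodies and arrows their direction. The central peak stands at 2245, and the highest of the other regions drawn is the one 2266 bp to the left, at 79.35.

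The strongest neighbour lay just beyond the 3′ end of Y22D7AL.10, outside both genes' windows. Its summit was 2266 bp from the hsp-60 summit and 284 bp past the end of Y22D7AL.10, in sequence between genes. It had a signal of 79.35, with 50.99 in replicate 1 and 19.42 in replicate 2, a 2.63-fold difference, and an IDR of 0.0818. It overlapped a peak of the pooled list and of the replicate 1 list, and 2 peaks of the replicate 2 list, with signals of 43.07 and 19.42, but no conservative peak.

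hsp-6 encodes the mitochondrial Hsp70, which works beside HSP-60 in folding imported proteins, and lies on chromosome V from 4824124 to 4826760 on the reverse strand. Its strongest region, centred 388 bp upstream of the start, had a signal of 41.24, with 25.61 in replicate 1 and 16.8 in replicate 2, and an IDR of 0.241. Replicate 1 was the higher, 1.52-fold, and 14.1% of coding genes had a stronger region. The summit fell in exons of the noncoding RNA genes C37H5.16 and C37H5.15, and the nearest coding start was that of C37H5.5, at 212 bp. The replicate summits were apart there, 30 bp to the left of the region's summit in replicate 1 and 61 bp to the right in replicate 2. Of the 6 regions of hsp-6, this was the strongest. The region with its summit nearest the start, 158 bp into the gene, had 16.95 and did not reach the start. On the replicate 2 list alone a region 2482 bp into the gene, with 17.25, was stronger, and 54.7% of coding genes were higher there, against 5.30% on the replicate 1 list alone.

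dve-1, on chromosome X from 427035 to 433812 on the reverse strand, had the strongest region of the 4 regulators among the members, the others being atfs-1, ubl-5 and haf-1. Its summit lay 62 bp upstream of the start, with a signal of 46.55, 26.94 in replicate 1 and 21.03 in replicate 2, and an IDR of 0.0875. It ranked 1771 of the ranked regions, 7.20% of coding genes had a stronger region, and the replicate summits were 16 and 3 bp from its own. That percentage was 33.7% on the replicate 2 list alone and 3.85% on the replicate 1 list alone. The other 5 regions of dve-1 had signals of 2.994 to 29.98.

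The summit sequences of hsp-6 and dve-1 are shown for contrast with the hsp-60 promoter, as the members after that pair with the strongest start-proximal regions that held CCAAT within 100 bp of the summit. Each gives 50 bp on either side of the summit on the forward strand, with capitals marking CCAAT, which reads ATTGG on the reverse strand.
hsp-6, chrV:4827098-4827198: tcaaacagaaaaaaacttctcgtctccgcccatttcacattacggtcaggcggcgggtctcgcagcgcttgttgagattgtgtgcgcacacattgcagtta
dve-1, chrX:433824-433924: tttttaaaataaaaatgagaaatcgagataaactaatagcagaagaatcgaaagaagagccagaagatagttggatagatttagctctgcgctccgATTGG
The hsp-6 window holds no CCAAT, and the nearest, in the word CCCCAATCG, was centred 57 bp from the summit. The dve-1 window ends in CCAAT on the reverse strand, in the word CACCAATCG, 48 bp from the summit, and a further one, TCCCAATGA, lay 89 bp to the other side. None of the 3 words matches the extended consensus.

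atfs-1, on chromosome V from 14193663 to 14197700 on the forward strand, had a weak region at its start. That region, 18 bp into the gene, had 16.19, with 10.33 for the first input and 11.06 for the second, and 77.8% of ranked regions were higher. Its strongest region was 3231 bp into the gene in a coding exon, with 32.26, 12.65 in replicate 1 and 18.93 in replicate 2, and an IDR of 0.528. Those replicate peaks were shared with a neighbouring region, so they are not that region's own.

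ubl-5, which encodes a ubiquitin-like protein and lies on chromosome I from 5607826 to 5608841, had its strongest region 169 bp upstream of its start. The signal was 36.77, with 17.8 in replicate 1 and 19.31 in replicate 2, which differed 1.08-fold. The IDR was 0.28, and 24.7% of coding genes had a stronger region, or 43.0% and 31.4% on the replicate 2 and replicate 1 lists alone.

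haf-1 encodes the mitochondrial peptide exporter of the response and lies on chromosome IV from 17376427 to 17379310. It was the weakest member: its strongest region, 2677 bp into the gene, had 28.83, with 13.29 for the first input and 14.58 for the second. Its 3 regions upstream of the start had signals of 3.848 to 11.24, and 52.9% of coding genes had a stronger region than its best.

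clpp-1 encodes the proteolytic subunit of the mitochondrial ClpP protease and lies on chromosome II from 10300714 to 10302842 on the reverse strand. Its strongest region covered the gene start, with the summit 19 bp downstream of the start in a coding exon. The signal was 45.01, with 21.01 in replicate 1 and 22.96 in replicate 2, which differed 1.09-fold, and the IDR was 0.121. It was second to dve-1 among the 7 members other than the chaperonin pair, with 8.77% of coding genes higher. On the replicate 2 list alone it was 24.6%, and on the replicate 1 list alone 16%. Within replicate 1, however, its inputs had signals of 4.316 and 14.4, a 3.34-fold difference.

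lonp-1 encodes the mitochondrial Lon protease, which degrades ATFS-1 in healthy mitochondria, and lies on chromosome I from 10676922 to 10682374 on the reverse strand. Its strongest region was in an intron, 4083 bp into the gene, with 34.86, 12.39 for the first input and 24.22 for the second, and an IDR of 0.54. Of the 171 words of 31 bases in the 201 bp around that summit, 140, or 81.9%, occur more than once in the genome, against 0 in the windows of the other 8 genes. The region 543 bp upstream of its start had 19.63, with 10.27 and 14.63 for its inputs.

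**Figure D3:**
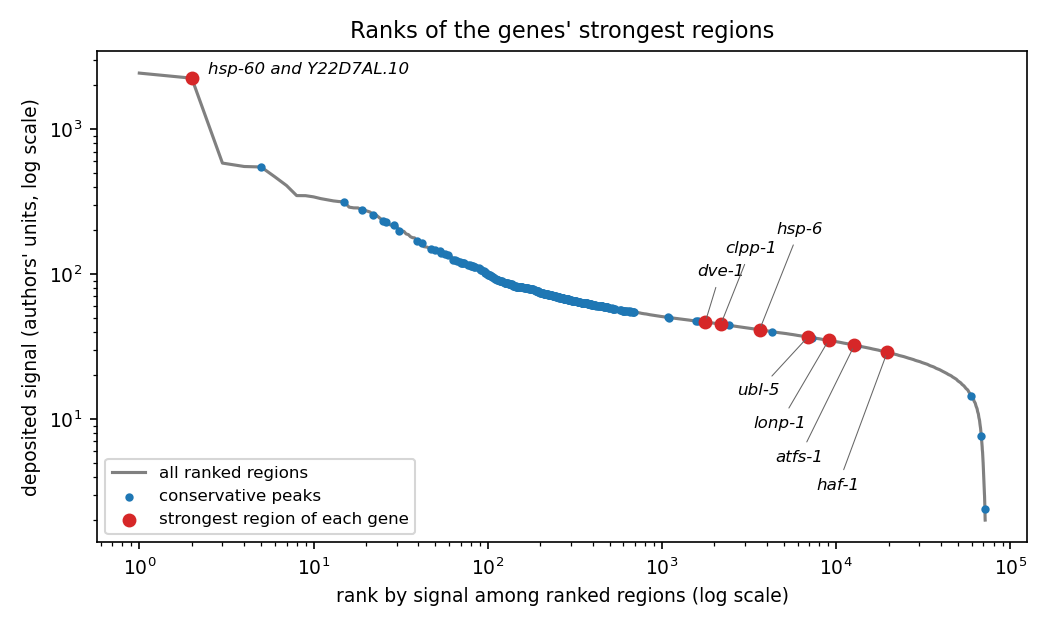
Deposited signal against rank among the 71547 ranked regions (both log scales; line, all regions; blue, conservative peaks; red, strongest region of each gene). hsp-60 and Y22D7AL.10 are at rank 2, and the other 7 genes lie between rank 1771 and rank 19604, where conservative peaks are few.

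Set beside each other, the 7 members without a thresholded peak were close in signal but not in rank. Their strongest regions had signals of 28.83 to 46.55, so that the hsp-60 peak was 48.2 times the highest and 77.9 times the lowest of them. These regions ran from rank 1771 to rank 19604, and 7.20% to 52.9% of coding genes had a stronger one. Of the 281 conservative peaks, 9 had a signal under the highest of the 7. No IDR among the 7 was under 0.01, the level that 0.534% of ranked regions reached, and the values ran from 0.0875 to 0.541. The 2 inputs differed by 1.08-fold to 1.95-fold, with a median of 1.28-fold beside 1.46-fold over all ranked regions. Replicate 1 was higher at hsp-6 and dve-1, and the second input at the other 5. In the ranked list 88.5% of coding genes had a region, and the median gene's strongest signal was 31.05. A median of 24.7% of coding genes had a stronger region than a member of the 7, or 43.0% and 31.4% on the replicate 2 and replicate 1 lists alone. For regions from 1000 bp upstream to 200 bp downstream of the start it was 8.79%, the value of ubl-5. The 7 were split there. dve-1, clpp-1 and hsp-6 had 2.81%, 3.28% and 5.02%, and lonp-1, atfs-1 and haf-1 had 46.4%, 53.8% and 59.5%. On the replicate 2 and replicate 1 lists alone that median was 24.8% and 11.5%.

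For 4 of the 7, hsp-6, ubl-5, dve-1 and clpp-1, the strongest region lay within 1000 bp of the start, and for atfs-1, lonp-1 and haf-1 it lay farther into the gene. At the limit of the window, the farthest upstream regions taken in were those of dve-1 at 770 bp, with a signal of 12.82, and of haf-1 at 764 bp, with 9.006. Just outside were regions at 1066 bp from atfs-1, with 12.84, at 1145 bp from dve-1, with 27.06, and at 1227 bp from Y22D7AL.10, with 48.55, the last of which lies in the hsp-60 gene.

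CCAAT within 100 bp of the summit was found at the strongest region of 7 of the 9 genes. This counts genes, so the region shared by hsp-60 and Y22D7AL.10 enters it for both. The extended consensus was found at that shared region. Of the 48 distinct regions, 24 held CCAAT and 1 held the extended consensus. Among all ranked regions 37.8% held CCAAT and 2.64% the extended consensus, and among conservative peaks 39.5% and 11.0%. The nearest CCAAT was 3 bp from the summit at hsp-60, 12 bp at lonp-1, where the window held 3, 48 bp at dve-1, 51 bp at ubl-5, 57 bp at hsp-6 and 96 bp at atfs-1, in the word CTCCAATGC. clpp-1 and haf-1 had none within 100 bp. A match is a description of letters, and no match says only that they are not in the window.

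**Figure D4:**
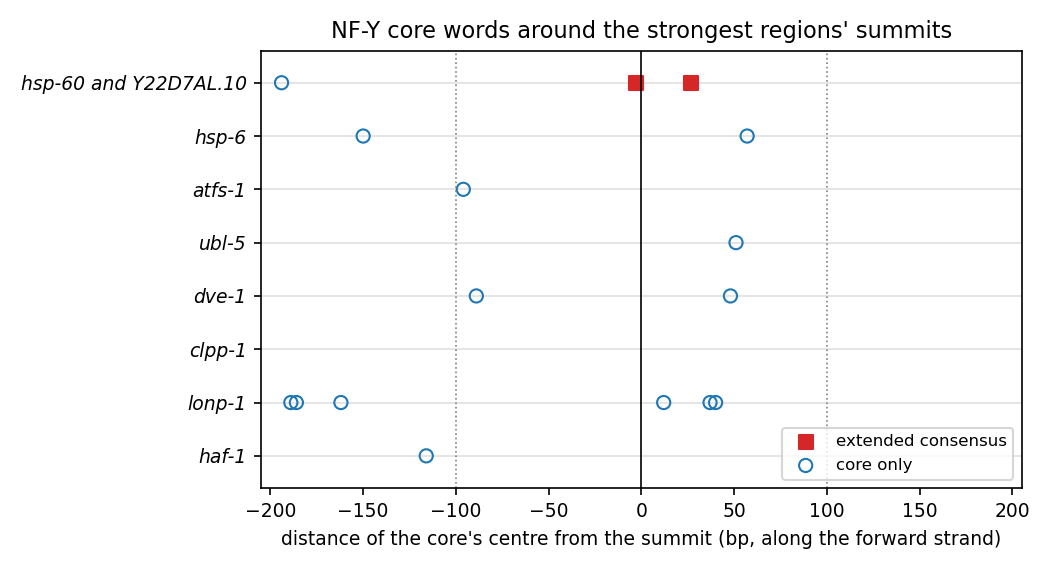
Distance of each CCAAT core's centre from the summit of the strongest ranked region of each gene (bp along the forward strand), with filled squares for the extended consensus and open circles for the core alone; dotted lines mark 100 bp on either side. Only the row of hsp-60 and Y22D7AL.10 has squares, at -3 and 27 bp.

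Lists of mitochondrial genes, which hold the 9 members and 63 others, place these values in their pathways. Of the 72 genes matched, 6 had a conservative peak and 8 a pooled peak, and on each replicate list 2 had one, hsp-60 and Y22D7AL.10. Without the members, 4 of 63 genes had a conservative peak, 6 a pooled peak and 0 a peak on either replicate list. Over all coding genes the shares were 1.30%, 2.00%, 0.456% for replicate 1 and 0.401% for replicate 2. The lists were written with results of the whole series known, so nothing is read from the difference between counts and shares. Among the 9 chaperones and co-chaperones, these 2 were the ones with a peak. The next was dnj-9, which encodes a J-domain protein, with 52.58 at 239 bp upstream of its start, with 28.39 and 15.85 for its inputs. A median of 15.5% of coding genes had a stronger region than a gene of that list, a value that rests on the hsp-60 pair, and over the 7 other genes of the list the median was 32.4%.

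Of the 14 proteases and prohibitins, none had a peak in any thresholded list. With 1.30% of all coding genes on the conservative list and 2.00% on the pooled list, nothing is read from that. The highest after clpp-1 were phb-1, a prohibitin, with 44.48, and spg-7, a paraplegin-like protease, with 41.26. At phb-1 the inputs were 12.08 and 32.11. The list's median was 47.4% of coding genes higher, near the middle of all genes.

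Among the 17 regulators of the response, cbp-1 and lin-53 had a conservative peak and a pooled peak. cbp-1 encodes the histone acetyltransferase CBP/p300, and its peak, 905 bp upstream of the start, had a signal of 90.45, with 34.71 and 52.92 for its inputs. lin-53 encodes a histone-binding chaperone of chromatin complexes, and its peak had 87.11, with 36.04 and 53.04. That summit was 247 bp upstream of lin-53 and 220 bp from the start of nra-2, so it cannot be assigned to either alone. Next came dve-1. The median of the list was 15.4%, or 33.7% for regions from 1000 bp upstream to 200 bp downstream of the start.

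Of the 17 import genes, tin-9.1 and ddp-1, both of which encode small Tim proteins of the intermembrane space, had a conservative peak and a pooled peak. The ddp-1 peak, 146 bp upstream of its start, had 86.14, with 39.2 and 43.56 for its inputs. The tin-9.1 peak had 86.5, with 39.91 and 46.99, and its summit was 978 bp downstream of the start in the 3′ UTR of klp-18, so it was counted by distance alone. timm-17B.1, named for an inner membrane translocase subunit, followed with 42.16. The list's median was 59.1%.

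Of the 15 genes of mitochondrial dynamics and mitophagy, fndc-1 and pdr-1 had a pooled peak and no conservative one. fndc-1, a mitophagy receptor gene, had 58.24 at 106 bp into the gene, with 22.14 and 40.91 for its inputs. pdr-1, which encodes the worm parkin, had 48.22 at 659 bp into the gene, with 17.19 and 35.54. pink-1, the kinase gene that acts with parkin, had 50.82 and no peak in a thresholded list. The list's median was 27.5%.

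Of the 72 genes, 5 had the extended consensus at their strongest region: hsp-60 and Y22D7AL.10, by their shared region, atf-4, ulp-4 and jmjd-3.1. The last 3 are named here after their values were seen. Of all ranked regions 2.64% held the consensus, and the share over the strongest regions of all coding genes was not computed. atf-4, a bZIP gene of the integrated stress response, had 42.79 and an IDR of 0.148. For ulp-4, a SUMO protease gene, the values were 40.71 and 0.658, and for jmjd-3.1, a histone demethylase gene, 32.11 and 0.40. None of the 6 other genes with a conservative or pooled peak held it. Over all 72 genes, 48 stood in the upper part of the coding genes, above the median, and a median of 32.7% of coding genes had a stronger region.

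**Figure D5:**
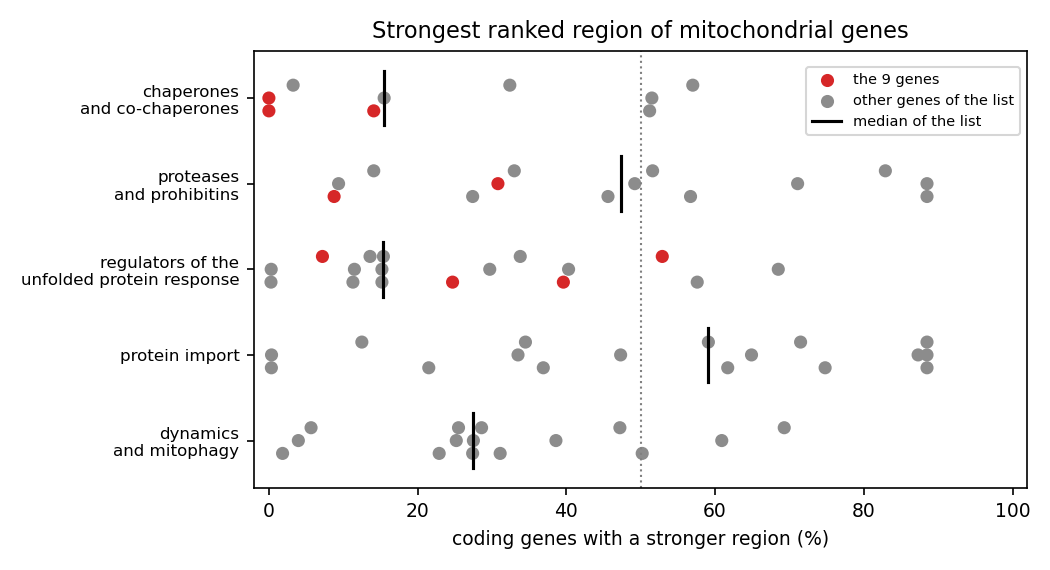
Percentage of coding genes with a stronger ranked region, for each gene of the mitochondrial lists (red, the 9 genes; grey, the others; bar, the list's median); low values mean strong regions, and genes with no region stand at 88.5%. The medians lie at 15.5%, 47.4%, 15.4%, 59.1% and 27.5% from top to bottom.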

How the data were processed

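NFYA-2::eGFP ChIP-seq was deposited as 8 lists of regions on assembly ce11, the sequence of WBcel235: a ranked and a thresholded list for replicate 1, replicate 2, the replicates together (71547 ranked, 281 conservative) and a further pair called pooled here (121011 and 435). The replicate lists held 44931 and 92, and 55696 and 90. The deposited signal of each region is the authors' peak caller value, used to rank and describe within a list. The input signals of the series' lists are scores of the same kind, as deposited. Fold differences between inputs or replicates compare these scores, with no correction for the depth of the libraries. The −log10 IDR was also computed by the authors, and region and summit positions are as deposited. Inputs of the replicates' ranked list were read as replicate 1 and 2 because interval and signal equalled an entry of that replicate's own list in 61.47% and 46.96% of regions and of the other's in 0%. Where no such entry was found, or none was looked for, values are given by input. Neighbouring regions can share replicate peaks: 16 of 49 gene and region pairs shared that of replicate 1, and 10 of these also that of replicate 2. Which aligner and peak caller were used is not given in the sources used here. The labels' antibody field names nfya-2, and the description an anti-GFP antibody.

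Genes came from Ensembl release 115, leaving out mitochondrial DNA. Ranks, percentages and word searches on both strands were computed with Python 3.11.15, pandas 2.3.3 and numpy 2.4.6. The assignment and the search were tested on simulated regions and words. No test was made, since there is 1 group and the members and lists were chosen with earlier results of these data known. Named are the 9 members, list genes with a thresholded peak or among a list's 3 strongest, and conservative peaks down to rank 5. Genes outside this rule are said to be named after their values were seen. Of 73 list names, 72 were matched. Alternatives changed the list, window, words and replicate.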

Additional observations from a re-analysis of the deposited data

How the results depend on the processing

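Windows of 2000 bp, the promoter alone, an overlap of 1 bp, the pooled list and the stronger conservative peaks left 2 members with a peak, and a window of 500 bp left 1, Y22D7AL.10, since hsp-60 starts 609 bp from the summit. The mitochondrial lists had 3 genes with a peak at 500 bp and 2 without either replicate, against 6, while the share of all coding genes with a peak was 1.02%, 0.401% (without replicate 1) and 0.456% (without replicate 2), against 1.30%. In the ranked lists hsp-60 ranked 2, in the pooled list and on leaving out either replicate (range 1 to 2 over thresholded and ranked lists), and its ratio to the next lower signal was 3.41 to 4.42 on leaving out either replicate (3.486 in the ranked list of replicate 1). The summit lay 3 to 10 bp from the first box. The median percentage of coding genes above the 7 other members, 24.7%, was 31.4% to 43.0% without a replicate and 8.79% for promoters. For promoters it was 11.5% on the replicate 1 list alone and 24.8% on the replicate 2 list alone. Without replicate 1 the value for hsp-6 was 54.7% and for dve-1 33.7%, and without replicate 2 they were 5.30% and 3.85%, so the order of the weak members depends on the replicate. Allowing 1 mismatch outside CCAAT gave 4 genes with the extended consensus, adding dve-1 and lonp-1, and 50 bp gave 4 with the core. Of 54 further values for single genes, 40 stayed within the standard deviation of the 2 replicate-list values and 14 did not. Those replicate-list values are among the 54, and the deviation was 0 for hsp-60 and Y22D7AL.10. It was widest where the replicates differed most, so this count does not measure stability. No paired analysis was possible because there is 1 group. Depth is unknown, so a weak signal and a shallow library cannot be told apart.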

Other observations

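The printed hsp-60 promoter also held 3 copies of TGATGNAA (N is any base), known in mammals as the C/EBP-ATF response element, a word looked for after the sequence had been seen. TGATGCAA and TGATGTAA began 94 and 112 bp to the right of the summit on the forward strand, and TTACATCA, the same word on the reverse strand, began at 130 bp, from 1619263 to 1619270. These words lie between the CCAAT boxes and hsp-60. Within 150 bp of a summit, at least 1 copy on either strand was found in 7.85% of ranked regions and 6.41% of conservative peaks, and 2 or more in 0.366% and 0.712%. Of the other members' strongest regions, that of hsp-6 held 1 copy, that of haf-1 held 2, and those of atfs-1, ubl-5, dve-1, clpp-1 and lonp-1 held none.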
